A study of Homo sapiens with 10 samples.

Results

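The HOXA and MEIS1 programme of KMT2A-rearranged leukaemia was followed here through 10 genes, HOXA3, HOXA5, HOXA7, HOXA9, HOXA10, MEIS1, PBX3, MEF2C, RUNX2 and JMJD1C, which were matched by Ensembl identifier to the 63677 gene rows of the count data. Fusions of KMT2A bring elongation factors and the histone methyltransferase DOT1L to KMT2A target genes, and the posterior HOXA genes and MEIS1 are the classical targets. HOXA9 binds DNA together with MEIS1 and with PBX3, which belong to the TALE homeodomain family, and this complex maintains self-renewal of leukaemic cells. MEF2C, RUNX2 and the H3K9 demethylase family member JMJD1C are further genes whose expression or function has been tied to KMT2A-rearranged leukaemia.

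The cell line RS4;11 was established from BCP-ALL with the translocation t(4;11), which fuses KMT2A to AFF1. From it, 5 VENins lines were raised under stepwise increasing venetoclax (VEN), an inhibitor of BCL-2, up to 100 nM over 8 months, and were then kept under VEN, which was washed off before the analysis. The 5 VENsens lines were cultured in parallel with the solvent DMSO. All lines derive from 1 parental line and carry the same fusion, so that the libraries hold no sample without it, and p-values measure the spread between lines of this one origin. Each line gave 1 poly(A) library, read from a single end over 75 bases.

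The gene counts summed to between 20631907 and 28323643 per library in VENsens lines and to between 21145316 and 25394653 in VENins lines. Each member was covered by at least 5345 counts over the 10 libraries, and MEF2C by 197330. Levels are given as CPM, counts relative to the library's total on genes after TMM scaling, and differences as log2 fold changes of VENins over VENsens lines. A change of RNA per cell and a change in the share of cells with the RNA cannot be told apart in such libraries. All 10 members passed the filter on low counts and were tested among 16756 genes.

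The HOXA part of the programme was expressed in every line. HOXA9, the homeodomain factor most closely linked to KMT2A fusions, had 143, 142, 143, 145 and 141 CPM in VENsens lines 1 to 5 and 144, 155, 149, 147 and 164 CPM in VENins lines 1 to 5. The 5 VENsens lines lay within a narrow band, VENins line 5 was the highest of all 10, and VENins line 1 fell inside the VENsens range, so that the groups overlapped. HOXA9 was higher in VENins lines in 5 of 5 pairs of lines with the same number. Lines with the same number did not deviate together over genes (r of -0.103 to 0.028). Counts of pairs, here and below, therefore depend on the numbering. HOXA9 had a log2 fold change of 0.09 (95% interval -0.03 to 0.20) and an adjusted p of 0.44 in edgeR's quasi-likelihood test. Without line pair 5, HOXA9 had a log2 fold change of 0.05. HOXA10, its neighbour in the cluster, had 84.3, 73.6, 72.2, 79.7 and 75.9 CPM in VENsens lines and 72.0, 73.2, 68.3, 69.8 and 93.0 CPM in VENins lines. Here VENins line 5 stood above all other lines and the other 4 VENins lines were below the VENsens mean of 77.1 CPM. The log2 fold change was -0.04 (95% interval -0.19 to 0.11, adjusted p = 0.826). It was -0.13 without line pair 5 and 0.0047 without line pair 1.

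The upstream sequences of HOXA9, HOXA10 and MEIS1 are shown because these genes carry the programme, and capitals mark CpG dinucleotides. They are the 250 bases before an annotated start, from RefSeq on GRCh38.p14 and read 5' to 3' on the strand of the gene. The HOXA9 window lies at chr7:27165538-27165787 on the minus strand and the HOXA10 window, at the downstream of its 2 annotated starts, at chr7:27174321-27174570 on the minus strand. The MEIS1 window lies at chr2:66434875-66435124 on the plus strand. None of these 3 windows contains an annotated exon.
HOXA9: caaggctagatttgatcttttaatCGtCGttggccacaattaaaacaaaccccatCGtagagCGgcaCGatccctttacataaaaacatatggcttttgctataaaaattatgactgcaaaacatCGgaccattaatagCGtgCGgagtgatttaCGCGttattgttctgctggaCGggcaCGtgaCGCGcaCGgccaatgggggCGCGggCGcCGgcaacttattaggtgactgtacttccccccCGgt
HOXA10: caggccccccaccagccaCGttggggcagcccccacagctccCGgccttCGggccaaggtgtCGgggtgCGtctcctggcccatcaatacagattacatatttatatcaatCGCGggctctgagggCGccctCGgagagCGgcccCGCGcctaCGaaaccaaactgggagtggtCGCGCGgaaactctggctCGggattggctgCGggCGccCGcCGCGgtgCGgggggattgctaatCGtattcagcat
MEIS1: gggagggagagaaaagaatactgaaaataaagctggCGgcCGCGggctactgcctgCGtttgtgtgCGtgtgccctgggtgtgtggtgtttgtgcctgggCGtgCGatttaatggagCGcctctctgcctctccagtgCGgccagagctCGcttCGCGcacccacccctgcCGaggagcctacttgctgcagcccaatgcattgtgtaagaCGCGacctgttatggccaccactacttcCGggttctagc
These windows hold 20, 24 and 16 CpG, against a median of 11 over 35116 annotated windows. Of all windows, 67.6%, 76.3% and 59% hold fewer CpG than these. Of the members, 9 had at least 1 window and 25 windows in all, 13 of them with more CpG than that median, and HOXA5 had none in the table. The HOX-PBX motif TGATTNAT, with N for any base, occurred on either strand in 2.48% of all windows and in 0 of the 25. The MEIS motif TGACAG was present in 13% of all windows and in 4 of the 25, which belong to PBX3 and MEF2C. The RUNX motif TGTGGT was present in 11% of all windows and in 3 of the 25, of MEIS1, RUNX2 and JMJD1C. Matches of the motifs were counted separately and may overlap, and they describe the letters of these windows only.

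HOXA5, HOXA7 and HOXA3, homeodomain factors from the middle of the cluster, were expressed in every line too. HOXA5 had 20.2, 20.8, 20.9, 22.4 and 23.0 CPM in VENsens lines and 20.4, 24.8, 23.1, 22.0 and 27.5 CPM in VENins lines. VENins line 5 was again the highest, and 4 of 5 pairs were higher in the VENins line. The log2 fold change of 0.13 had a 95% interval of -0.02 to 0.28 and an adjusted p of 0.384. HOXA7 averaged 22.1 ± 1.95 CPM (SD, n = 5) in VENsens and 22.4 ± 3.05 CPM (SD, n = 5) in VENins lines, and its estimate of 0.01 turned negative without line pair 5 (-0.09). HOXA3 averaged 25.3 ± 0.639 CPM (SD, n = 5) and 24.4 ± 2.72 CPM (SD, n = 5), with a log2 fold change of -0.06. With a line pair left out, this estimate ranged from -0.11 (pair 2) to -0.02 (pair 1).

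**Figure D1:**
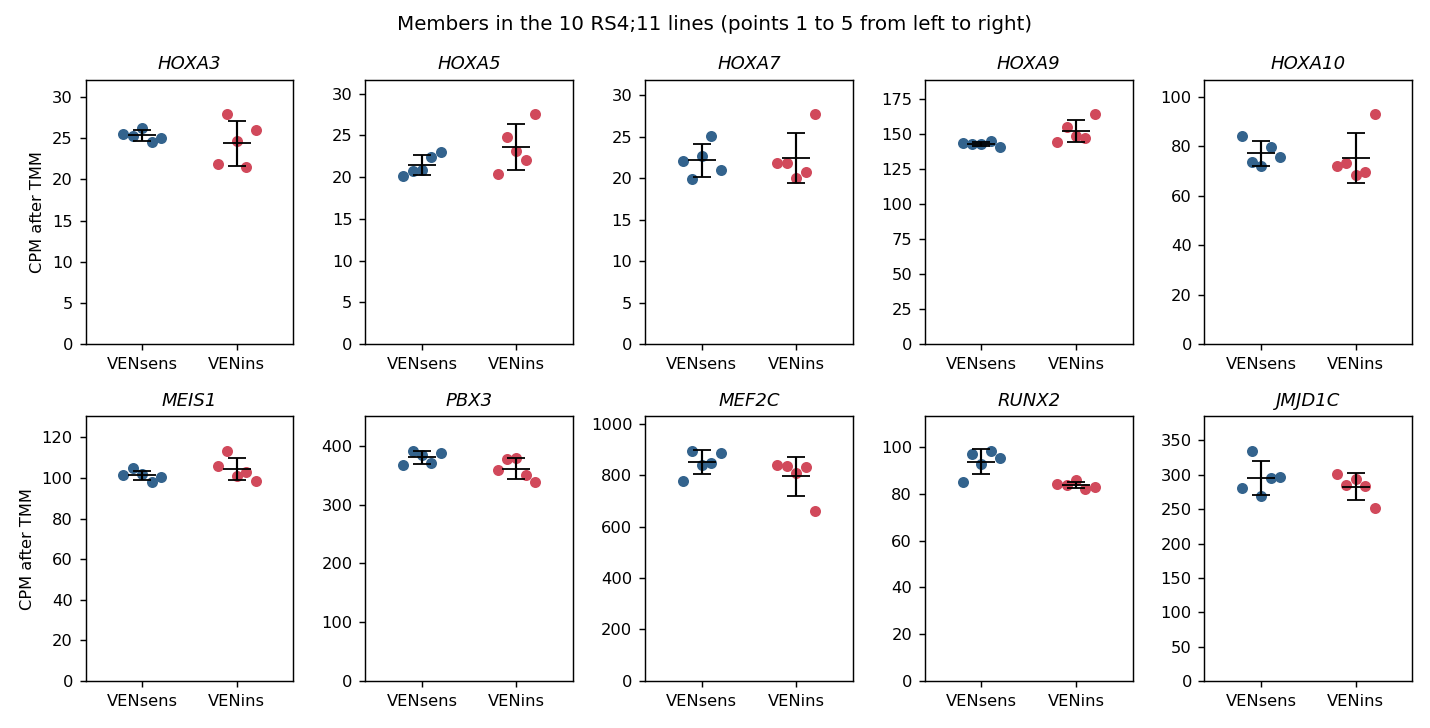
CPM of the 10 members in each line, with lines 1 to 5 from left to right within VENsens (blue) and VENins (red); the bars are the mean and SD of 5 lines. VENins line 5 is the highest point for HOXA5, HOXA7, HOXA9 and HOXA10 and the lowest for PBX3, MEF2C and JMJD1C, and the groups overlap for each member.

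Among the partners of HOXA9, MEIS1 had 101, 105, 102, 98.1 and 100.3 CPM in VENsens lines and 106, 113, 101, 103 and 98.6 CPM in VENins lines. Its groups overlapped, and the log2 fold change was 0.04 (95% interval -0.07 to 0.15, adjusted p = 0.736). It was 0.11 with the length trend removed, 0.10 with GC content and length trends both removed, and 0.03 without line pair 2. PBX3 had 368, 391, 384, 371 and 388 CPM in VENsens lines and 358, 378, 379, 351 and 338 CPM in VENins lines. It was lower in the VENins line of 5 of 5 pairs, by a log2 fold change of -0.08 (95% interval -0.18 to 0.03, adjusted p = 0.47), with overlapping groups. Without line pair 5, the log2 fold change of PBX3 was -0.05.

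MEF2C, a MADS-box factor of lymphoid and myeloid progenitors, had 778, 894, 841, 849 and 888 CPM in VENsens lines and 840, 834, 808, 832 and 660 CPM in VENins lines. VENins line 5 was well below the other 9 lines, while the other 4 VENins lines lay within the VENsens range. The log2 fold change was -0.10 (95% interval -0.24 to 0.04, adjusted p = 0.475), and -0.02 without line pair 5 and -0.03 with the length trend removed. JMJD1C averaged 296 ± 24.8 CPM (SD, n = 5) in VENsens and 283 ± 19.0 CPM (SD, n = 5) in VENins lines, with a log2 fold change of -0.06. With a line pair left out, this fold change ranged from -0.11 (pair 3) to -0.02 (pair 5), and it was 0.0055 with the length trend removed. RUNX2, a Runt domain factor, was the member with the smallest p. It had 85.1, 97.2, 92.7, 98.4 and 95.2 CPM in VENsens lines and 84.3, 83.6, 86.0, 82.3 and 83.2 CPM in VENins lines. The VENins lines were close together, and only VENsens line 1 fell among them. RUNX2 was lower in 5 of 5 pairs, with a log2 fold change of -0.16 (95% interval -0.28 to -0.04) and an adjusted p of 0.185 in edgeR. DESeq2 without the line number in the model gave -0.16 with an adjusted p of 0.0362, within a range of 0.0362 to 0.575 over 14 alternatives. With per-library trends on length and GC content removed, edgeR gave -0.10 (adjusted p = 0.221).

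Read together, 0 of 10 members had an adjusted p under 0.05 in edgeR's quasi-likelihood test with the line number as a block, where 0.197% of the 16756 tested genes did. At an unadjusted p under 0.05 there was 1 member, RUNX2, against 16.2% of tested genes. This count was 0 with the length trend removed or without line pair 4, and at most 2 in the other alternatives. Groups that did not overlap were found for 0 of 10 members and for 4.66% of tested genes. DESeq2 with the line number called 0 members and 1.69% of the 12857 genes to which it gave an adjusted p, and DESeq2 without it called 1 member and 6.05% of 12206 genes. The 95% intervals of the 10 members ran from a log2 fold change of -0.28 to 0.28, that is from 0.825-fold to 1.22-fold. Of the log2 fold changes, 4 were positive and 6 negative, with a median of -0.05 beside 0.0035 over all tested genes.

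**Figure D2:**
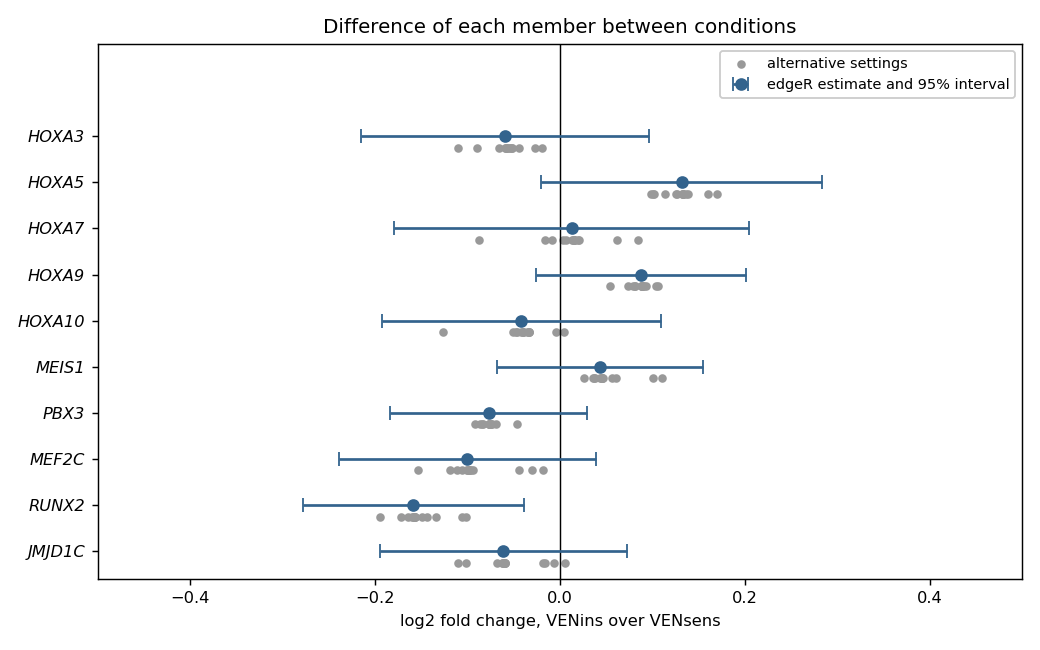
Log2 fold change of each member between VENins and VENsens lines (horizontal axis), with the edgeR estimate and its 95% interval in blue and the estimates under 14 alternative settings in grey. The interval of RUNX2, from -0.28 to -0.04, does not include 0, and those of the other 9 members do.

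Levels of different genes were compared per kb of annotated exon. PBX3 led with 81.8 ± 3.79 CPM per kb (SD, n = 10 lines), followed by MEF2C with 69.95 ± 5.65 and HOXA9 with 48.7 ± 2.35. The ranges of PBX3 and MEF2C overlapped over the 10 lines, whereas HOXA9 was below MEF2C in every line on this scale. JMJD1C (26.1 CPM per kb) and HOXA10 (20.6) overlapped and came next. HOXA5 (13.2), RUNX2 (10.8), MEIS1 (9.40) and HOXA7 (9.24) formed a series in which each overlapped the next, and HOXA3 (5.77) was below HOXA7 in every line. The antisense RNA HOXA-AS3 overlaps 62.5% of the exon bases of HOXA7, and the annotated overlap is 27% for HOXA9, 26.3% for HOXA10 and 17.9% for HOXA3. The kit does not mark strand, so reads of these stretches cannot be assigned to one partner. Per kb of exon shared with no other gene, a scale chosen after seeing the data, HOXA7 had 24.65 ± 2.68 CPM and moved from place 9 to place 6, and HOXA10 (27.9) and JMJD1C (27.1) exchanged places 4 and 5. This scale divides the whole CPM of a gene by its unshared exon length. Whether counts from shared stretches are part of that CPM was not tested. HOXA9 kept place 3 with 66.7 ± 3.23 CPM (63.7 to 74.2), and its range overlapped that of MEF2C, with 73.9 ± 5.97 CPM (59.3 to 80.4).

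Within the HOXA cluster, HOXA9 and HOXA10 together made up 65.5% to 68% of the summed CPM per kb of its 11 genes in each library, HOXA9 alone 45.1% to 48.3%. HOXA5, HOXA7 and HOXA3 had median shares of 12.5%, 8.63% and 5.61%. These shares use the whole exon length, of which other genes overlap 47.3% for HOXA4 and 40.1% for HOXA6, and per kb of unshared exon HOXA7 (24.65 CPM) was above HOXA5 (13.2 CPM). The remaining genes were lower, HOXA6 with 2.87%, HOXA2 with 1.02% and HOXA4 with 0.823%, and HOXA13 had a total of 98 counts and was not tested. Of the 10 tested HOXA genes, 0 had an adjusted p under 0.05 in edgeR, and 0 an unadjusted p under 0.05. Over all tested genes, 0.197% and 16.2% had such p-values. A separately annotated readthrough gene whose exons overlap HOXA9 and HOXA10 (ENSG00000257184) had 1 to 11 counts per library.

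HOXA11, next to HOXA10 and HOXA13, differed from the members in its spread. It had 3.66, 3.25, 4.40, 2.69 and 4.31 CPM in VENsens lines and 0.423, 0.899, 3.99, 7.94 and 1.44 CPM in VENins lines. The VENins lines 1, 2 and 5 were below every VENsens line and VENins line 4 was above every VENsens line, an 18.8-fold range against 1.64-fold in VENsens lines. The log2 fold change was -0.62 (95% interval -1.50 to 0.26, adjusted p = 0.486) and -1.35 without line pair 4 (adjusted p = 0.0156 in edgeR), but -0.26 without line pair 1, -0.40 without line pair 2, -0.37 without line pair 5 and -0.30 without the line number in the model. It ranged from -1.35 to -0.26, and its adjusted p from 0.00328 to 0.866, over 13 alternatives. The lowest HOXA11 value, in VENins line 1, rests on 9 counts. The antisense RNA HOXA11-AS overlaps 31.1% of the exon bases of HOXA11. It had the same order over the VENins lines, with 0.376, 0.531, 1.02, 1.26 and 0.828 CPM. DNTT, the terminal transferase of early lymphoid cells, had that order too, with 1.08, 1.43, 3.38, 27.3 and 1.96 CPM. In VENsens lines DNTT had 3.58, 3.05, 8.31, 3.77 and 6.38 CPM. The log2 fold change of DNTT was -0.36 (adjusted p = 0.79 in edgeR) and ranged from -1.44 without line pair 4, where it was called (adjusted p = 5.12e-05), to 0.49 without the line number in the model. Over the 10 libraries the log2 CPM of HOXA11 and DNTT correlated with Pearson r = 0.884 and Spearman rho = 0.915, and with r = 0.88 without VENins lines 1 and 2, which lay farthest from the HOXA11 median. The pair was chosen after its values were seen, and its points share library and depth.

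The noncoding RNAs of the cluster were low. Of 6 listed, 5 were tested and 0 had an adjusted p under 0.05 in edgeR, with 2 at an unadjusted p under 0.05, beside 0.197% and 16.2% of all tested genes. HOTAIRM1 had 0.520 to 1.12 CPM in VENsens and 0.511 to 1.35 CPM in VENins lines (log2 fold change 0.60, adjusted p = 0.207). HOXA10-AS had 4.11 to 5.13 CPM in VENsens and 3.43 to 4.09 CPM in VENins lines, groups that did not overlap (log2 fold change -0.27, adjusted p = 0.277), as for 4.66% of all tested genes. HOTTIP, at the far end of the cluster, had 4 counts over all libraries.

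The other HOX clusters had few counts or none. The 10 HOXB genes had at most 1 count each over the 10 libraries, and 8 of them were at 0 throughout, which allows up to 0.145 CPM in the shallowest library (3 counts, counting error alone). Of 9 HOXC genes, HOXC6 (4.98 to 6.47 CPM) and HOXC4 (1.10 to 2.25 CPM) were tested and the others had at most 3 counts in total. Of 9 HOXD genes, HOXD12 (0.558 to 1.13 CPM) was tested, and HOXD13 had 17 counts in total. None of these 3 tested genes had an adjusted p under 0.05 in edgeR, and 0 had an unadjusted p under 0.05. Of all tested genes, 0.197% and 16.2% passed these thresholds.

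**Figure D3:**
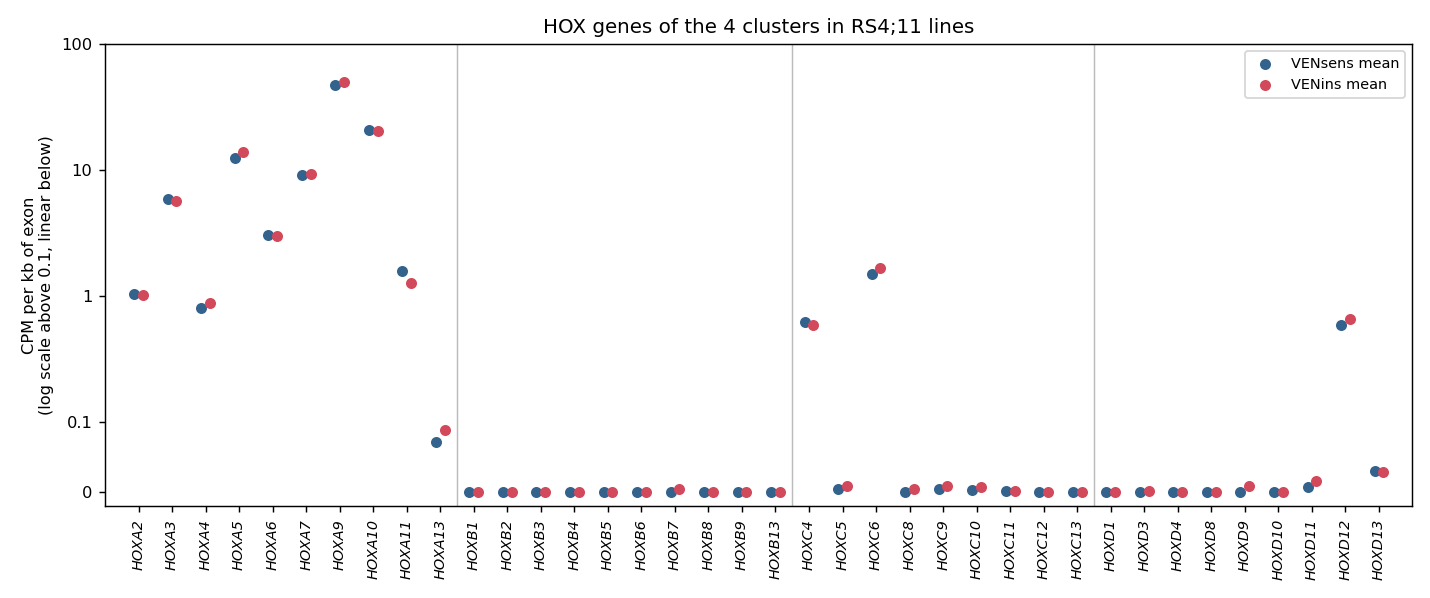
Mean level of HOX genes of the 4 clusters in VENsens (blue) and VENins (red) lines, as CPM per kb of exon on an axis that is logarithmic above 0.1 and linear below, with genes in cluster order. HOXA9 and HOXA10 are the highest, HOXC6, HOXC4 and HOXD12 are the only genes of the other 3 clusters above 0.1, and the 2 means of a gene lie close together.

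The members shared a pattern in 1 library. VENins line 5 held the highest or the lowest value of 7 of the 10 members, and the same was true of 38% of all tested genes. Relative to the mean over 10 lines, its log2 CPM was higher by 0.30 for HOXA5, 0.32 for HOXA7, 0.16 for HOXA9 and 0.29 for HOXA10, and its deviation was -0.31 for MEF2C, -0.20 for JMJD1C and -0.13 for PBX3. The former genes have a GC content of 47.8% to 54.2% and the latter of 39% to 44%. HOXA3, with the highest GC content of the members (55.8%), deviated by 0.07, RUNX2 (46.2%) by -0.09 and MEIS1 (41.7%) by -0.06. Across 16312 genes, which are not independent, the deviation of VENins line 5 correlated with GC content with r = 0.463, and those of the other 9 libraries with r between -0.226 and 0.269. Once trends on GC content and transcript length were removed from each library, which was also chosen after seeing the data, the deviations were 0.29, 0.24, 0.18 and 0.22 for these HOXA genes, -0.18 for MEF2C, -0.07 for JMJD1C and -0.06 for PBX3. They were closer to 0 than before for each of these genes but HOXA9. The part of base composition in the pattern was not tested beyond these values.

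**Figure D4:**
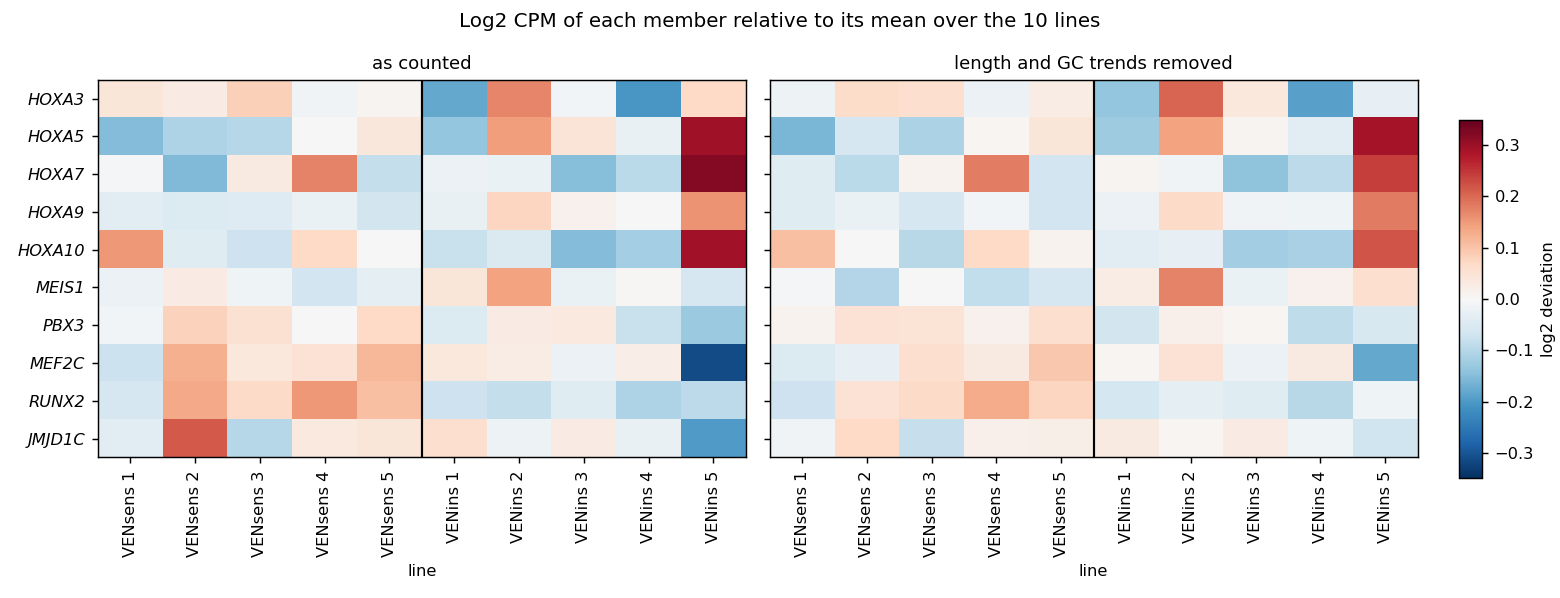
Log2 CPM of each member relative to its mean over the 10 lines, as counted (left) and with trends on GC content and transcript length removed (right); red is above and blue below the mean. The column of VENins line 5 is red for HOXA5, HOXA7, HOXA9 and HOXA10 and blue for MEF2C in both panels.

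Part of the co-variation of the members depended on the same library. Over the 10 libraries, the 10 pairs of HOXA members had a median Pearson r of 0.457 (Spearman rho 0.267), with HOXA5 and HOXA9 at 0.873 and HOXA7 and HOXA10 at 0.809. The 25 pairs of a HOXA and another member had a median r of -0.446, and HOXA9 and MEF2C reached -0.81. The 10 pairs among MEIS1, PBX3, MEF2C, RUNX2 and JMJD1C had a median r of 0.546. With condition means removed, the 3 medians were 0.678, -0.39 and 0.532. Without the 2 libraries farthest from the median of the first gene they were 0.0933, -0.148 and 0.522, and without VENins line 5 they were 0.188, -0.0901 and 0.376. Single pairs differed in this respect. Without VENins line 5, r was 0.692 for HOXA5 and HOXA9, 0.552 for HOXA7 and HOXA10 and -0.343 for HOXA9 and MEF2C. MEF2C and JMJD1C had r = 0.789 with and 0.61 without that line. These values describe 45 pairs over libraries that share depth and base composition as well as line.

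**Figure D5:**
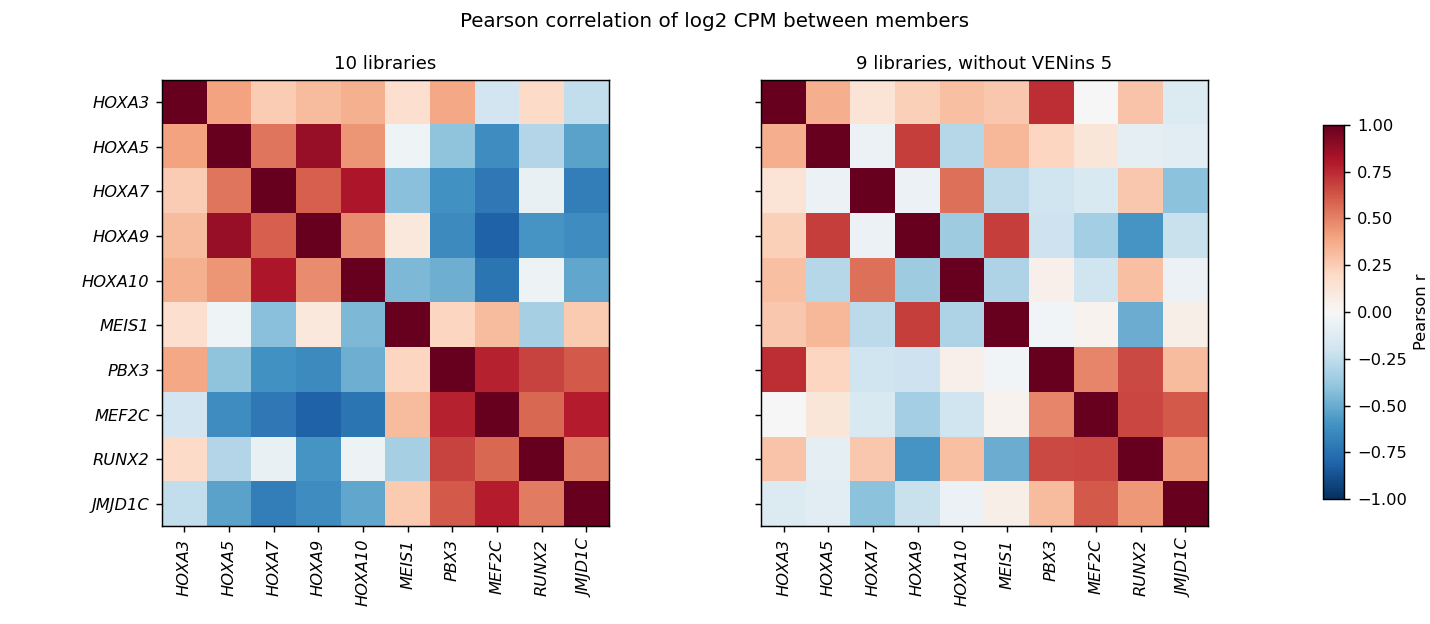
Pearson r of log2 CPM between members over 10 libraries (left) and without VENins line 5 (right), from -1 in blue to 1 in red. The contrast between the HOXA block and the block of PBX3, MEF2C, RUNX2 and JMJD1C is paler on the right, where the median r between HOXA and other members is -0.0901.

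Relatives of the members were read from the same fit, in which 0.197% of all tested genes were called and 16.2% had an unadjusted p under 0.05. Of 11 TALE genes, 8 were tested and 0 had an adjusted p under 0.05 in edgeR, with 0 at an unadjusted p under 0.05. TGIF2 had 116 to 131 CPM and MEIS2 7.56 to 12.2 CPM. PBX2 was listed at 0 in every library, as were all 16 other genes with a row within 150000 bases of it in the major histocompatibility region, so its value is not read as missing expression. Of the MEF2 factors and the class IIa histone deacetylases that bind them, 7 of 8 were tested, 0 were called by edgeR and 1 had an unadjusted p under 0.05, MEF2A, with 250, 304, 254, 261 and 278 CPM in VENsens and 225, 216, 246, 264 and 196 CPM in VENins lines. The groups of MEF2A overlapped (log2 fold change -0.24, adjusted p = 0.152), and MEF2A was called with no filter on low counts, with an adjusted p of 0.00542 to 0.594 over 14 alternatives. The RUNX family had 0 of 4 genes called and 2 at an unadjusted p under 0.05, RUNX2 and RUNX1, beside 0.197% and 16.2% of all tested genes. RUNX1, a regulator of blood stem cells and B-cell development, was lower in 5 of 5 pairs, with 483 to 532 CPM in VENsens and 425 to 496 CPM in VENins lines (log2 fold change -0.19, adjusted p = 0.126 in edgeR and 0.0147 in DESeq2 without the line number, with a range of 0.0147 to 0.561 over 14 alternatives). RUNX1 also passed the threshold in edgeR with no filter on low counts (adjusted p = 0.0355). Its log2 fold change was -0.11 with the length trend removed and -0.10 with GC content and length trends both removed. The RUNX partner CBFB had a log2 fold change of 0.08. KDM3A, KDM3B and JMJD1C, the KDM3 family, had log2 fold changes of -0.07, -0.09 and -0.06, and 0 of 3 were called by edgeR or had an unadjusted p under 0.05.

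Of 22 other targets of KMT2A fusions, 22 were tested, 0 had an adjusted p under 0.05 in edgeR and 5 an unadjusted p under 0.05, all 5 lower in VENins lines, beside 16.2% of all tested genes. Their median log2 fold change was -0.06, and 31.8% were positive beside 51.1% of all tested genes. The most abundant by CPM were CDK6, MBNL1 and MYC. CSPG4, the gene of the NG2 surface antigen used to recognise KMT2A-rearranged blasts, had 169, 166, 168, 172 and 175 CPM in VENsens lines and 129, 113, 132, 172 and 151 CPM in VENins lines. VENins line 4 was level with the VENsens lines and the other 4 VENins lines were below them. The log2 fold change was -0.30 with an adjusted p of 0.0837 in edgeR. It passed the threshold in DESeq2 with the line number (0.0124) and without it (0.0314), with no filter on low counts and without line pair 4 (-0.38, adjusted p = 0.00711 in edgeR), and ranged from 0.000235 to 0.486 over 14 alternatives. SKIDA1 had the largest positive estimate of the list, 0.39 (adjusted p = 0.318, and 0.0483 with no filter on low counts), and EYA1, at most 0.558 CPM, the most negative.

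KMT2A itself had 210 to 252 CPM in VENsens and 189 to 220 CPM in VENins lines (log2 fold change -0.15, adjusted p = 0.242), and AFF1, the other gene of the fusion, 266 to 340 and 228 to 289 CPM (-0.19, adjusted p = 0.239). Counts per gene do not separate fusion from wild-type transcripts. Of 17 fusion partners and cofactors, 16 were tested and 0 were called by edgeR, with 4 at an unadjusted p under 0.05, all 4 lower in VENins lines, beside 16.2% of all tested genes. The median log2 fold change was -0.07, and 12.5% were positive beside 51.1% of all tested genes. MLLT1 was lower in 5 of 5 pairs (-0.22, adjusted p = 0.188), PSIP1 had 280 to 305 CPM over the 10 lines, and MLLT3 had 3 counts over all libraries.

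Both of these lists had a median exon length above that of the tested genes. It was 8854 bases for the other targets and 6339 bases for the partners and cofactors, beside 4022.5 bases over all tested genes. The correlation with length also tended to be lower in VENins lines, with overlapping ranges, and this difference was not tested. Across 16312 genes, which are not independent, the deviation of a library correlated with log10 length with r of -0.134 to -0.0138 in VENins and -0.0158 to 0.215 in VENsens lines. Removing the length trend from each library left the other targets with a median log2 fold change of -0.04 and 36.4% positive, and the partners and cofactors with -0.02 and 18.8%, beside 0.014 and 54.4% over all tested genes. The genes at an unadjusted p under 0.05 were then 4 of the former, 1 of them lower, and 1 of the latter, beside 14.6% of all tested genes. When GC content was included in the removal, the medians were -0.03 and -0.02, beside 0.014, the positive shares 40.9% and 31.2%, beside 54.2%, and the counts at an unadjusted p under 0.05 were 7 (3 lower) and 2 (both lower), beside 19.5%. The part of length in the lower values of these lists was not tested beyond this.

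The lines expressed the genes of B-cell precursors. Of 12 such markers, 11 were tested, and the most abundant by CPM were IGLL1 and VPREB1, components of the surrogate light chain, and PAX5, which maintains B-cell identity. PAX5 was the 1 gene that edgeR called in any list, beside 0.197% of all tested genes. DESeq2 with the line number called PAX5 and CSPG4 and no other gene of the lists beside the members. Without it, 4 such genes were called, among them PAX5, CSPG4 and RUNX1. These DESeq2 fits called 1.69% and 6.05% of genes with an adjusted p. PAX5 had 782, 827, 713, 804 and 790 CPM in VENsens lines and 632, 584, 614, 676 and 647 CPM in VENins lines. All 5 VENins lines were below all 5 VENsens lines, and PAX5 fell by 0.31 on the log2 scale (SE 0.05, adjusted p = 0.0272 in edgeR). The call was lost without line pair 2 (-0.26, adjusted p = 0.242), 3 (-0.34, adjusted p = 0.0597) or 5 (-0.32, adjusted p = 0.0647), within a range of 1.24e-06 to 0.242 over 14 alternatives. In the other direction, CD79B, IGLL1 and VPREB1 had log2 fold changes of 0.24, 0.17 and 0.14 and were not called by edgeR, although CD79B passed the threshold with no filter on low counts (adjusted p = 0.00709). VENins line 5 had the highest value of the 10 lines for all 3 of these genes, with 213, 899 and 669 CPM. RAG1, of the recombinase of receptor genes, had 201 to 263 CPM in VENsens and 130 to 225 CPM in VENins lines, of which line 5 was the lowest (log2 fold change -0.32, adjusted p = 0.204 in edgeR and 2.2e-05 with no filter on low counts). Of the 11 tested markers, 6 had an unadjusted p under 0.05 (3 with positive and 3 with negative log2 fold changes), beside 16.2% of all tested genes. The groups of 2 markers did not overlap, both lower in VENins lines, beside 4.66% of all tested genes. CD34 had 8 counts over all libraries.

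T-cell and erythroid markers were close to 0, and myeloid markers were low. The 6 T-cell markers found summed to 0.915 to 1.30 CPM per library, with CD3E the most abundant and CD8A at 0, and 1 was tested. The 6 erythroid markers summed to 0.106 to 0.339 CPM, with HBA1 and HBA2 at 0, ALAS2 the most abundant and none tested. The 9 myeloid markers summed to 14.7 to 20.2 CPM, with CSF1R the most abundant (6.15 to 11.5 CPM), while ELANE had 1 count and CSF3R 4 counts over all libraries. Of 5 myeloid markers tested, 0 were called by edgeR and 1, CSF1R, had an unadjusted p under 0.05, beside 16.2% of all tested genes, and the T-cell marker CD3E had an adjusted p of 0.67.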

How the data were processed

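The authors deposited, per library, raw counts of reads on 63677 Ensembl genes and 5 summary lines, which hold 45.8% to 47.3% of the reads and were left out. The submitters' processing notes list bcl2fastq 2.20.0.422, Bowtie2 2.3.5.1, SAMtools 1.9, HTSeq 0.9.1 and the builds hg19 and GRCh37. The strand setting is not given in the sources used here. Names, exon lengths and overlaps came by gene identifier from GENCODE 29 (GRCh38), which named 52526 identifiers, and coordinates printed are GRCh38. Lengths and GC content were known for 97.4% of tested genes.

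The software was edgeR 4.0.16 in R 4.3.3 (filterByExpr, minimum count 10, minimum total 15, TMM, quasi-likelihood F test with line number and condition, after the paired analysis in the study's methods). Benjamini-Hochberg adjustment covered all tested genes, and an adjusted p under 0.05 was called. Intervals of log2 fold changes come from the F statistic, and correlations use log2 CPM with a prior count of 2. DESeq2 1.42.0 was an alternative, as were no block, RLE factors, library size alone, 2 other filters, removal of trends (splines with 4 degrees of freedom) and each line pair left out. The fits were tested on simulated data. Plots used matplotlib in Python 3.11.15.

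The members and gene lists were chosen with earlier results of these data known. Named genes are the members, list genes with an adjusted p under 0.05 and, per list, the 3 largest positive and negative log2 fold changes and the 3 most abundant genes. Not every gene that this rule selects is named. Other list genes named, among them those with few or no counts, were chosen after their values were seen. TRAC was not found by symbol. Some genes of the lists are counted in them but not reported here by name. Chi-square divided by its degrees of freedom was 1.93 to 14.3 for pairs of lines of one condition, above counting error. Genes near 1 CPM rest on few counts.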

Additional observations from a re-analysis of the deposited data

Results flagged for a closer look

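Of 30 groups of 5 values examined, the 10 members and the other tested HOXA genes in each condition, 3 had a line far from the rest, and chance gives about 1 in 20 such groups. All 3 concern VENins line 5. HOXA7 had 27.7 CPM there against 20.0 to 21.8 CPM in the other 4 VENins lines, HOXA10 had 93.0 CPM against 68.3 to 73.2 CPM, and MEF2C had 660 CPM against 808 to 840 CPM. The GC trend of this library is given beside these genes above, and its part in them was not tested beyond the values with the trend removed.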

How the results depend on the processing

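Of 140 recomputed log2 fold changes of members, 134 kept their direction and side of the threshold, 5 changed sign and 1 passed the threshold. HOXA7 and JMJD1C changed sign with the replicate block kept and the length trend removed (-0.0087 and 0.0055). HOXA10 did so without line pair 1 (0.0047, range -0.13 to 0.0047 with a pair left out). HOXA7 also changed sign without line pair 2 (-0.016) or 5 (-0.087, range -0.087 to 0.084). The call was RUNX2 in DESeq2 without the block, so that 1 member was called there and 0 in every other setting. DNTT, at -0.36, was at 0.49 without the block in edgeR and in DESeq2, and ranged from -1.44 (without line pair 4, where it was called) to 0.049 with a line pair left out. The cause of these shifts was not tested.

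Over all genes, 33 calls became 149 without the replicate block, 217 in DESeq2 with it, 739 in DESeq2 without it, 664 with no filter, 50 with the block and the length trend removed, 155 with the block and the trends on length and GC content removed, and 6 (without line pair 2) to 331 (without line pair 4) with a pair left out. Of the other listed genes, edgeR with the block called PAX5 alone, beside 0.197% of all tested genes. DESeq2 with and without the block called 2 and 4, beside 1.69% and 6.05% of genes with an adjusted p. With no filter, 9 were called, beside 2.02% of 32884 genes. With a pair left out, 0 to 4 were called, beside 0.0358% to 1.97% of tested genes. Lines with the same number did not deviate together, with correlations of -0.103 to 0.028 over genes, and 0 of 5 VENsens lines matched its own number best. Of 40 member levels recomputed with RLE factors or library size alone, all 40 moved by less than 1 SD, by at most 0.312%. Depth leaves genes with few counts, such as HOXA13 and the HOXB, HOXC and HOXD genes not tested, without a comparison.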
